A study of Mus musculus with 8 samples.

Results

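The 8 genes described here, *Adgrd1*, *Adgrg1*, *Adgrg6*, *Adgrg7*, *Adgre5*, *Adgrl1*, *Adgrl2* and *Adgra3*, encode adhesion G protein-coupled receptors (GPCRs) and are 8 of the 54532 genes in the count table. They were taken by name from a list chosen by the *Adgrd1* counts, which were much higher in RANKL-treated than in control organoids, so the differences of the members between these groups are described below and carry no p-value. The annotation holds 30 adhesion GPCR genes that are also in the table, and the other 22 are given for comparison. The libraries were made from mouse intestinal organoids, which are epithelial cultures grown from crypts in Matrigel. The methods describe a medium with EGF, NOGGIN and R-spondin for such cultures, controls included. The 4 control libraries came from organoids labelled control, and the 4 RANKL libraries came from organoids treated with RANKL, the ligand of the receptor RANK. Per the methods, the mice of the study had a C57BL/6J background. The labels of these 8 libraries give no donor, dose or duration, and nothing in the labels says that replicates are separate cultures, so the spread between libraries may be technical. RNA was read from its 3′ end with QuantSeq, in which a transcript yields about the same number of reads whatever its length, so levels in CPM (counts scaled to the library total with TMM factors) can be compared between genes. Total counts ran from 583663 to 7807298 in control and from 613135 to 1923354 in RANKL libraries.

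Adhesion GPCRs carry a long extracellular part that contacts matrix or neighbouring cells, joined to a 7-helix membrane domain by a GAIN domain. In many of them the GAIN domain cuts the protein at a short site, the GPCR proteolysis site, and the stretch behind the cut, called the tethered agonist or Stachel, can activate the receptor from within. Signals then run through G proteins to cAMP or to the small GTPase RhoA, and arrestins and receptor kinases end them. In the intestine these receptors are known on epithelial cells as well as on leukocytes, endothelium and smooth muscle.

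The cleavage site is a feature of the family that can be sought in sequence, and its coding stretch is shown because the choice by name did not use it. No other part of the receptors was compared. A pattern for the site was found once in the longest annotated coding sequence of 7 of the 8 members and in 20 of the 30 genes of the family. It was not found in *Adgra3*, which says only that these letters are absent there. The sequences below are 54 coding bases from GENCODE M21 on GRCm38, 5′ to 3′ on the coding strand, and capitals mark the 3 codons across which the protein is cut, with the tethered agonist coded from the third of them onward.
Adgrd1: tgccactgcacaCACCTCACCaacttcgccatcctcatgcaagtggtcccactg
Adgre5: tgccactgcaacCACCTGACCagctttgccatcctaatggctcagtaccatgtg
Adgrg1: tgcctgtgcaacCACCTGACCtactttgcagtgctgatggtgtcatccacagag
Adgrg6: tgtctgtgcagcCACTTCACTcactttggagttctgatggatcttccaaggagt
Adgrg7: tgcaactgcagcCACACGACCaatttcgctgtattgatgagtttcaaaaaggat
Adgrl1: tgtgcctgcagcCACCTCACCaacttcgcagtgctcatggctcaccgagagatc
Adgrl2: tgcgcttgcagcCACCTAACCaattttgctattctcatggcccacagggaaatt

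The *Adgrd1* stretch lies at chr5:129171873-129171926 on the plus strand, that of *Adgre5* at chr8:83725868-83725921 on the minus strand, that of *Adgrl1* at chr8:83933994-83934047 on the plus strand and that of *Adgrl2* at chr3:148837567-148837620 on the minus strand, each within 1 coding exon. The stretches of *Adgrg1* (chr8:95007630-95008385, plus), *Adgrg6* (chr10:14428203-14431644, minus) and *Adgrg7* (chr16:56748019-56750445, minus) are each split by an intron, which the printed bases leave out. Among the 21 pairs, the latrophilins *Adgrl1* and *Adgrl2* were the closest, with 41 of 54 bases in common (75.9%). *Adgrd1* shared the most bases with *Adgre5*, 38 of 54 (70.4%), although the 2 genes differed in their response to RANKL. The least alike pair was *Adgrd1* and *Adgrg6*, with 27 of 54 bases (50.0%). The pattern used to find the site fixes some of its residues, so part of the shared bases follows from the search.

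In control organoids, *Adgrg1* and *Adgrl1* were the most abundant members and *Adgrd1* was near the bottom. *Adgrg1* stood at 59.3 ± 3.09 CPM (SD, n = 4) and *Adgrl1* at 46.4 ± 9.29 CPM, and their libraries did not overlap. *Adgra3* at 26.1 ± 10.4, *Adgrl2* at 21.3 ± 2.78 and *Adgrg7* at 19.8 ± 9.22 CPM followed, and neighbours in this order overlapped, including *Adgrl1* with *Adgra3*. *Adgre5* at 5.97 ± 1.79 CPM and *Adgrd1* at 5.59 ± 1.14 CPM lay below all of these in every control library and overlapped each other. *Adgrg6* had no count in any library.

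With RANKL, *Adgrd1* moved to the top of the order, in every library above the other members. *Adgrg1* at 50.2 ± 15.5, *Adgrg7* at 38.7 ± 4.05, *Adgrl1* at 33.4 ± 4.64 and *Adgrl2* at 30.0 ± 2.19 CPM came next, and each of these overlapped the next one. *Adgra3* at 16.0 ± 4.11 CPM lay below *Adgrl2* without overlap and overlapped *Adgre5* at 8.62 ± 7.45 CPM. *Adgrg6* again had no count. *Adgrg7*, which had ranked below *Adgrl1*, *Adgra3* and *Adgrl2* by its mean in control, was above all 3 by its mean with RANKL.

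**Figure D1:**
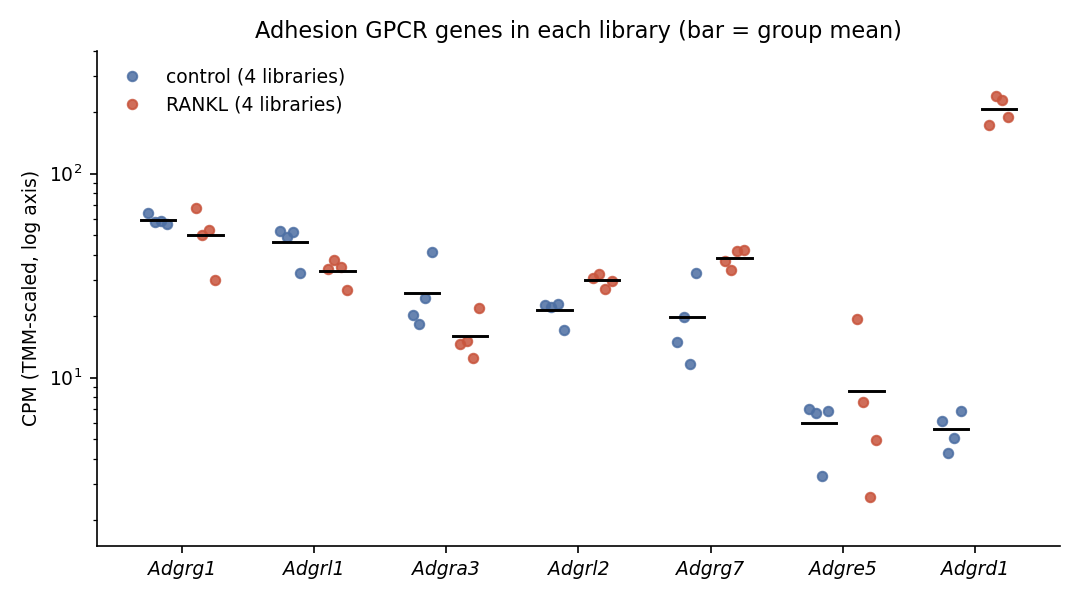
Level of each adhesion GPCR gene in each library, in TMM-scaled CPM on a log axis, with control libraries in blue, RANKL libraries in red and the group mean as a black bar. *Adgrg6*, with 0 counts, is left out. *Adgrd1* passes from 4.29 to 6.88 CPM in control to 173 to 241 CPM with RANKL, while the group means of the other genes differ by far less.

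*Adgrd1* (GPR133, ENSMUSG00000044017, chr5:129096750-129204599, plus strand) encodes a receptor known to couple to the stimulatory G protein and to raise cAMP. The control libraries 1 to 4 gave 48, 16, 20 and 4 counts, which is 6.11, 4.29, 5.07 and 6.88 CPM. The RANKL libraries gave 107, 350, 442 and 345 counts, which is 173, 241, 231 and 190 CPM. The lowest RANKL library was thus far above the highest control library, and the RANKL group held 1244 reads of the gene against 88 in the control group, although its summed depth was 5763309 counts against 16214577.

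The fitted difference for *Adgrd1* was 5.27 on the log2 scale (SE 0.16), which is 38.6-fold. The difference stood in place 19 among the 9971 genes tested, counted from the largest increase, and it is the value for which the set was chosen. Of the tested genes, 3.46% had a lower mean level than *Adgrd1* in control and 90.7% had a lower one with RANKL. By its control libraries alone *Adgrd1* would not have passed the filter on low counts, so its place in control depends on that filter. Both percentages restate the values for which the set was chosen. Over the alternative settings that tested *Adgrd1* the difference stayed between 5.17 and 5.42. The control libraries differed among themselves by no more than counting error (chi-square per degree of freedom 0.621, where counting error alone gives about 1), and the RANKL libraries by more (5.80). This measure grows with the number of reads, of which the RANKL group held far more. As a percentage of the mean, the SD was 20.4% in control and 15.6% with RANKL.

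The libraries carried epithelial markers throughout, with *Epcam* at 1032 ± 38.4 and 1110 ± 45.0 CPM and *Cdh1* at 3472 ± 388 and 3486 ± 199 CPM in control and RANKL. Of the 6 epithelial markers 2 fell and none rose, the keratins *Krt18*, from 638 ± 50.8 to 394 ± 19.9 CPM (-0.70, SE 0.09, edgeR adjusted p = 9.4e-07), and *Krt19*, from 593 ± 69.2 to 482 ± 35.0 CPM (-0.30, SE 0.10, edgeR adjusted p = 0.023). Over all tested genes 25.9% passed the threshold of adjusted p 0.05 in edgeR, 13.6% higher and 12.4% lower. These shares belong beside the counts of every marker list here. Of the 9 markers of M cells, the antigen-sampling cells of the intestinal epithelium, 7 were tested and all 7 rose, with a median of 4.28. Their summed level was 54.1 to 60.6 CPM in control and 1882 to 2140 CPM with RANKL, while the mature M cell marker *Gp2* was at 0 in all libraries. Most of the RANKL sum was *Spib*, at 1489 to 1760 CPM. *Spib*, *Sox8*, *Tnfaip2* and *Ccl20* had control means of 0.131 to 4.35 CPM and passed the filter on low counts through their RANKL libraries. For these genes a rise was the only call open. *Marcksl1*, at 4.82 to 8.60 CPM in control, would not have passed the filter by its control libraries alone. The count of 7 is thus partly fixed by the filter. Of the 4 stem cell markers 1 rose and 2 fell. *Lgr5* fell from 45.1 ± 3.53 to 10.3 ± 2.56 CPM and *Smoc2* from 154 ± 27.6 to 89.0 ± 9.05 CPM. *Ascl2* rose from 17.6 ± 2.66 to 37.3 ± 6.63 CPM. *Olfm4*, at 1162 ± 159.4 and 1026 ± 107.5 CPM, did not pass the threshold. The 5 endothelial markers summed to 6.17 to 13.8 CPM in control and 6.88 to 12.1 CPM with RANKL, with *Cdh5* and *Kdr* at 0. The 7 fibroblast and smooth muscle markers summed to 3.57 to 18.9 and 20.7 to 26.6 CPM, with *Dcn* at 0. The higher sum lay in *Pdgfrb*, the one of them that was tested, higher by 2.53 (means 3.87 and 19 CPM). *Pdgfrb* passed the filter on low counts through its RANKL libraries alone and could be called only as higher. Lower means after treatment were found for *Acta2* (4.68 and 2.61 CPM), *Col1a1* (0.988 and 0.268 CPM) and *Myh11* (0.063 and 0 CPM). *Col1a2* (0.063 and 0.13 CPM) and *Pdgfra* (0.257 and 0.268 CPM) were slightly higher by their means. The part of any of these in the *Adgrd1*, *Adgrg7* and *Celsr1* differences was not tested, and in bulk libraries more cells of a type and more RNA per cell cannot be told apart.

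Of the 3 members of the G subfamily, *Adgrg7* was higher with RANKL, *Adgrg1* did not pass the threshold and *Adgrg6* was not detected. *Adgrg7* (GPR128, chr16:56724609-56795855, minus strand) is an orphan receptor known for its expression in the intestinal epithelium. Its control libraries gave 15.0, 19.9, 11.7 and 32.7 CPM, and its RANKL libraries 37.1, 33.7, 41.7 and 42.3 CPM. The groups did not overlap, but the highest control library, the shallowest one with 19 counts of the gene, came within about 1 CPM of the lowest RANKL library. *Adgrg7* rose by 1.23 on the log2 scale (SE 0.20, 2.34-fold), and the alternative settings gave 1.09 to 1.35.

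*Adgrg1* (GPR56, chr8:94974751-95014217, plus strand) couples to the G12 and G13 proteins and RhoA and binds transglutaminase 2 and collagen III. Its control libraries were close together at 63.8, 58.0, 58.8 and 56.8 CPM. The RANKL libraries spread from 67.8 in replicate 1 through 50.2 and 52.7 to 30.2 CPM in replicate 4, so that the highest RANKL library was above all controls and the other 3 were below all of them. The fitted difference was -0.33 on the log2 scale (SE 0.16) and did not pass the threshold, and without RANKL replicate 4 it was -0.12. The spread beyond counting error was seen in the RANKL group (chi-square per degree of freedom 6.13) and not in control (0.684).

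*Adgrg6* (GPR126, chr10:14402583-14545659, minus strand), a receptor needed for myelination by Schwann cells, had 0 counts in all 8 libraries. A count of 0 allows up to 0.185 CPM over the control group and 0.521 CPM over the RANKL group, floors that cover counting error only. It was not tested. *Adgrg5* and *Adgrg3*, which lie beside *Adgrg1* on chromosome 8, had 0 and 3 counts in all.

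The latrophilins *Adgrl1* and *Adgrl2* bind teneurins and FLRT proteins on neighbouring cells, and their mean levels differed between the groups in opposite directions. *Adgrl1* (chr8:83900105-83941954, plus strand) gave 52.2, 48.8, 52.0 and 32.7 CPM in control and 33.9, 37.9, 34.9 and 26.9 CPM with RANKL. The groups overlapped through control replicate 4, the shallowest library, which lay below 3 of the 4 RANKL libraries. *Adgrl1* fell by 0.56 on the log2 scale (SE 0.16), and without RANKL replicate 4 the value was -0.45 and no longer passed.

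*Adgrl2* (chr3:148815583-148990555, minus strand) gave 22.8, 22.3, 23.1 and 17.2 CPM in control and 30.7, 32.4, 27.1 and 29.7 CPM with RANKL. All RANKL libraries were above all control libraries, and in both groups the libraries differed by no more than counting error. The fitted difference of *Adgrl2* was 0.42 (SE 0.17) and did not pass the threshold, which it did pass when only genes with at least 10 counts in every library were tested (0.43).

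*Adgra3* (GPR125, chr5:49959956-50059006, minus strand), an orphan receptor linked to planar cell polarity, gave 20.4, 18.3, 24.6 and 41.3 CPM in control and 14.5, 15.1, 12.5 and 21.97 CPM with RANKL. The 2 highest control libraries were above all RANKL libraries and the other 2 were below RANKL replicate 4. The fitted difference was -0.48 (SE 0.23) and did not pass, and it ran from -0.72 without RANKL replicate 4 to -0.35 without RANKL replicate 3. With replicate number as a block in the fit it was -0.69 and passed.

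*Adgre5* (CD97, chr8:83723251-83741326, minus strand) is known from leukocytes and also from epithelial cells, and binds CD55. Its counts were low, with 97 reads over the control libraries and 37 over the RANKL libraries. The control libraries gave 7.002, 6.71, 3.29 and 6.88 CPM and the RANKL libraries 19.4, 7.57, 2.61 and 4.94 CPM. RANKL replicate 1, with 12 counts, was the highest of all 8 libraries, and the other RANKL libraries spanned the control range. The fitted difference was 0.17 (SE 0.40), did not pass the threshold and had no settled sign, since it was -0.28 without RANKL replicate 1. Leukocyte markers were low in all libraries. The summed level of the list of 7 was 0 to 5.22 CPM in control and 2.07 to 9.69 CPM with RANKL, none was tested, and *Cd3e* and *Cd79a* were at 0.

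**Figure D2:**
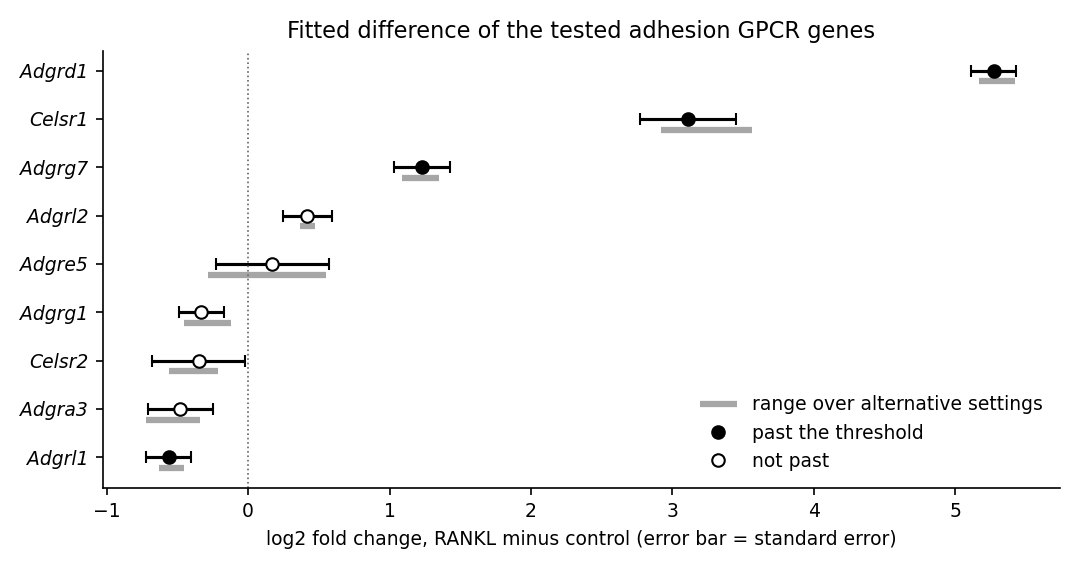
Fitted log2 fold change, RANKL minus control, of the 9 adhesion GPCR genes that were tested, with the standard error as the error bar and the range over alternative settings as a grey bar below it; filled points passed the threshold. *Adgrd1* lies at 5.27 and *Celsr1* at 3.11, apart from the other genes, which lie between -0.56 and 1.23.

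In all, 3 of the 7 members tested passed the threshold of adjusted p 0.05 in edgeR, 2 of them higher and 1 lower. Over all tested genes, 25.9% passed, 13.6% higher and 12.4% lower, and nothing is read from the count of members against this, since the same contrast chose the list and *Adgrd1* is among the 3 by that choice. Likewise 3 of the 7 had groups that did not overlap, against 24.6% of all tested genes. The median difference of the 7 was 0.17, against 0.00 over all genes.

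Summed over the 8 members, the level was 185 ± 7.78 CPM in control and 385 ± 31.7 CPM with RANKL. This difference lay in *Adgrd1*. Without *Adgrd1* the sum was 179 ± 6.69 CPM in control, from 173 to 187, and 177 ± 19.7 CPM with RANKL, from 156 to 203, so that the groups overlapped. Of the reads on the 8 genes, *Adgrd1* held 2.98% in control (88 of 2952, 95% Wilson interval 2.43 to 3.66%) and 55.5% with RANKL (1244 of 2240, 53.5 to 57.6%). Its share ran from 2.41 to 3.54% over the control libraries. It was 45.9, 57.7, 57.3 and 54.9% in RANKL replicates 1 to 4. The intervals pool the reads of the 4 libraries of a group and cover counting error only, and RANKL replicate 1 lay below the RANKL interval. The share of *Adgrg1* was 33.3% in control and 12.1% with RANKL, and that of *Adgrl1* 27.6% and 8.57%. These are shares of a common total and do not vary independently.

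**Figure D3:**
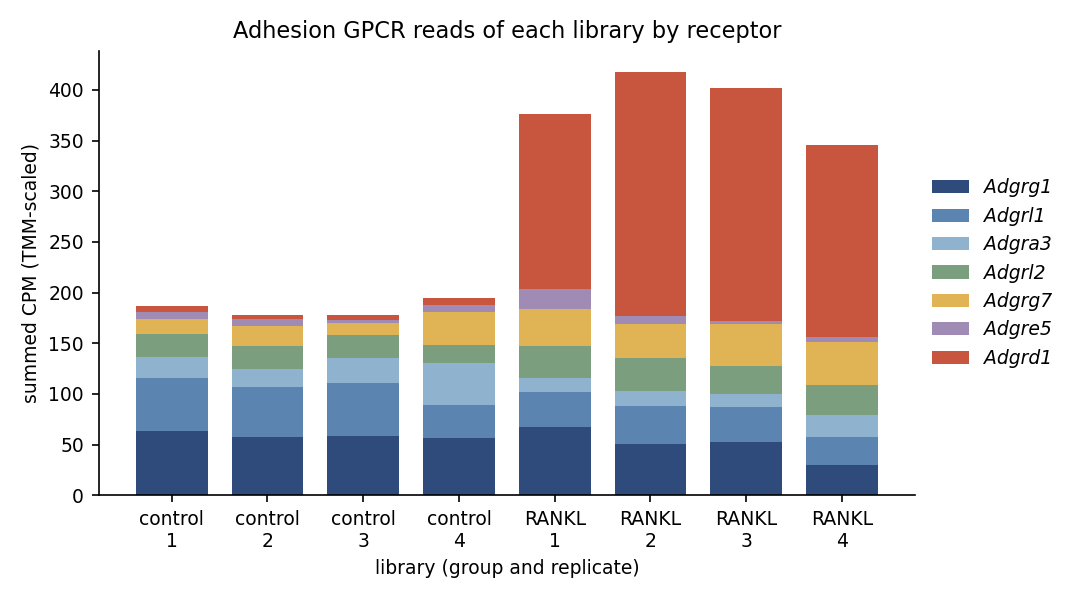
Summed level of the adhesion GPCR members in each library, in TMM-scaled CPM, stacked by receptor with *Adgrd1* on top; the axis starts at 0. Below the *Adgrd1* block the stacks reach 173 to 187 CPM in control and 156 to 203 CPM with RANKL.

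The other 22 genes of the family were mostly silent or nearly so. Of these, 6 had no count in any library (*Adgrb2*, *Adgre4*, *Adgrf3*, *Adgrg2*, *Adgrg5* and *Adgrl4*) and 14 had 1 to 38 counts over all 8 libraries and were not tested. The remaining 2 belong to the CELSR cadherins of planar cell polarity. *Celsr1* gave 1.53, 3.22, 1.01 and 0 CPM in control (12, 12, 4 and 0 counts) and 12.9, 18.6, 14.6 and 14.8 CPM with RANKL (8, 27, 28 and 27 counts). Of the tested family genes, *Adgrd1* and *Celsr1* were those whose lowest RANKL library was several times above the highest control library. *Celsr1* rose by 3.11 on the log2 scale (SE 0.34, edgeR quasi-likelihood test, adjusted p = 2e-08, n = 4 and 4), and by 2.92 to 3.56 over the alternatives that tested it. It passed the filter on low counts through its RANKL libraries alone, and a gene this low in control could be called only as higher. *Celsr2*, at 6.04 ± 1.09 CPM without and 5.0 ± 1.58 CPM with treatment, differed by -0.35 (SE 0.33, edgeR adjusted p = 0.48).

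Genes whose profile over the 8 libraries was most like that of *Adgrd1* were sought by the root mean square difference of log2 CPM after each profile was centred on its mean. The 5 nearest of the tested genes were *Il4i1* (0.322), *Icam1* (0.35), *Vcam1* (0.392), *Zbtb7c* (0.414) and *Slc2a6* (0.443). *Icam1* and *Vcam1* encode adhesion molecules for leukocytes and *Il4i1* an amino acid oxidase. They had 0 to 2 counts each in the control group and 97 to 193 with RANKL, so their likeness depends on the prior count of 2 in the log2 scale, and their fold differences are not given. The 6 other tested members were much farther away, from 2.04 for *Adgrg7* to 2.87 for *Adgra3*. All these distances rest mainly on the difference between control and RANKL libraries, the value for which *Adgrd1* was chosen. They restate the fold differences and add no separate evidence of likeness or unlikeness.

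Within 500 kb of the gene lie 19 annotated genes, of which 10 had a count and 5 were tested, a window chosen after the *Adgrd1* values were seen. *Ran*, 72 kb upstream, was measured at 75.4 ± 9.45 CPM in control libraries and 80.8 ± 9.81 CPM in RANKL libraries (log2 difference 0.08, edgeR adjusted p = 0.69). *Stx2*, 88 kb upstream, differed by 0.52 (adjusted p = 0.25), *Rimbp2*, 143 kb upstream, by -0.33 (adjusted p = 0.2), and *Sfswap*, 297 kb downstream, by 0.22 (adjusted p = 0.17), none of them past the edgeR threshold. *Gm42979*, 352 kb downstream, rose by 0.84 (SE 0.15, edgeR adjusted p = 9.2e-05). *Mmp17*, a metalloproteinase gene 380 kb downstream, had too few reads to be tested (14 without and 23 with RANKL), with mean levels of 0.776 ± 0.662 and 3.50 ± 1.59 CPM.

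Of 25 extracellular ligands and partners of these receptors, 9 were tested, of which 3 rose and 1 fell, with a median of 0.24. *Prnp*, which encodes the prion protein, a ligand of the undetected *Adgrg6* receptor, rose from 5.50 ± 2.40 to 26.0 ± 2.71 CPM (log2 difference 2.47, SE 0.25, edgeR adjusted p = 5.4e-09). *Itgav*, an integrin subunit that can bind CD97, rose from 11.7 ± 6.28 to 29.5 ± 7.06 CPM (1.6, SE 0.25, edgeR adjusted p = 9.8e-06). *Cd55*, the complement regulator bound by CD97, rose from 4.91 ± 1.43 to 11.2 ± 2.55 CPM (1.11, SE 0.29, edgeR adjusted p = 0.0049). *Prnp* and *Cd55* passed the filter on low counts through their RANKL libraries, and their control libraries by themselves would not have passed it. *Flrt3*, a latrophilin ligand, fell from 32.7 ± 3.98 to 18.9 ± 0.571 CPM (-0.75, SE 0.18, edgeR adjusted p = 0.0017). For each of these 4 genes the groups did not overlap. Over all tested genes, 24.6% had groups that did not overlap and 25.9% passed the threshold. The share of 25.9% belongs beside the counts of this list and of each list below. *Tgm2*, the partner of *Adgrg1*, was at 61.5 ± 5.0 and 70.5 ± 8.99 CPM and did not pass (edgeR adjusted p = 0.18).

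None of the 8 tested G protein alpha subunits passed, with differences from -0.67 to 0.45 and a median of 0.09. Among them *Gnas*, the stimulatory subunit used by *Adgrd1*, was measured at 138 ± 7.33 CPM without RANKL and at 149 ± 20.9 CPM after treatment (0.11, edgeR adjusted p = 0.5). Of the 3 beta and gamma subunits tested, *Gng12* rose by 0.44 (SE 0.10, edgeR adjusted p = 0.0018).

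In the cAMP branch, 2 of the 9 genes tested rose and 2 fell, with a median of 0.16. *Prkar2a*, a regulatory subunit of protein kinase A, fell from 599 ± 48.1 to 363 ± 32.0 CPM (-0.72, SE 0.10, edgeR adjusted p = 1.1e-06). The cAMP-responsive transcription factor gene *Atf1* fell by 0.65 (SE 0.17, edgeR adjusted p = 0.0052) and its relative *Creb1* rose by 0.35 (SE 0.11, edgeR adjusted p = 0.02). Both lost the call without RANKL replicate 4, at edgeR adjusted p = 0.052 and 0.086, and *Creb1* also lost it with no filter on low counts (adjusted p = 0.094). The other gene past the threshold was *Prkar1a* (0.35, edgeR adjusted p = 0.034), a second regulatory subunit.

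In the RhoA branch, 2 of the 12 genes tested fell and none rose, with a median of -0.08. These were the kinases *Rock2*, from 374 ± 40.8 to 268 ± 23.4 CPM (-0.48, SE 0.10, edgeR adjusted p = 0.0007), and *Pkn2*, from 123 ± 7.65 to 89.5 ± 8.73 CPM (-0.47, SE 0.11, edgeR adjusted p = 0.0023). *Rhoa* itself stood at 746 ± 95.1 and 726 ± 70.4 CPM (-0.05, edgeR adjusted p = 0.77).

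Genes that end receptor signals included both beta-arrestins. Of the 9 arrestins, receptor kinases and RGS proteins tested, 3 rose and 1 fell, with a median of 0.34. *Arrb1* rose from 97.5 ± 20.5 to 186 ± 28.2 CPM (0.89, SE 0.12, edgeR adjusted p = 1.9e-06) and *Arrb2* from 27.1 ± 4.6 to 55.0 ± 7.99 CPM (1.11, SE 0.16, edgeR adjusted p = 2.7e-06). The receptor kinase *Grk6* fell by 0.62 (SE 0.13, edgeR adjusted p = 0.00079). *Grk5* rose by 0.64 (SE 0.22, edgeR adjusted p = 0.028), a call lost under 8 alternative settings. With *Celsr1* and *Celsr2* counted as a seventh list, 16 of the 52 genes tested in the lists passed, 10 higher and 6 lower, against the 25.9% of all genes given above.

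**Figure D4:**
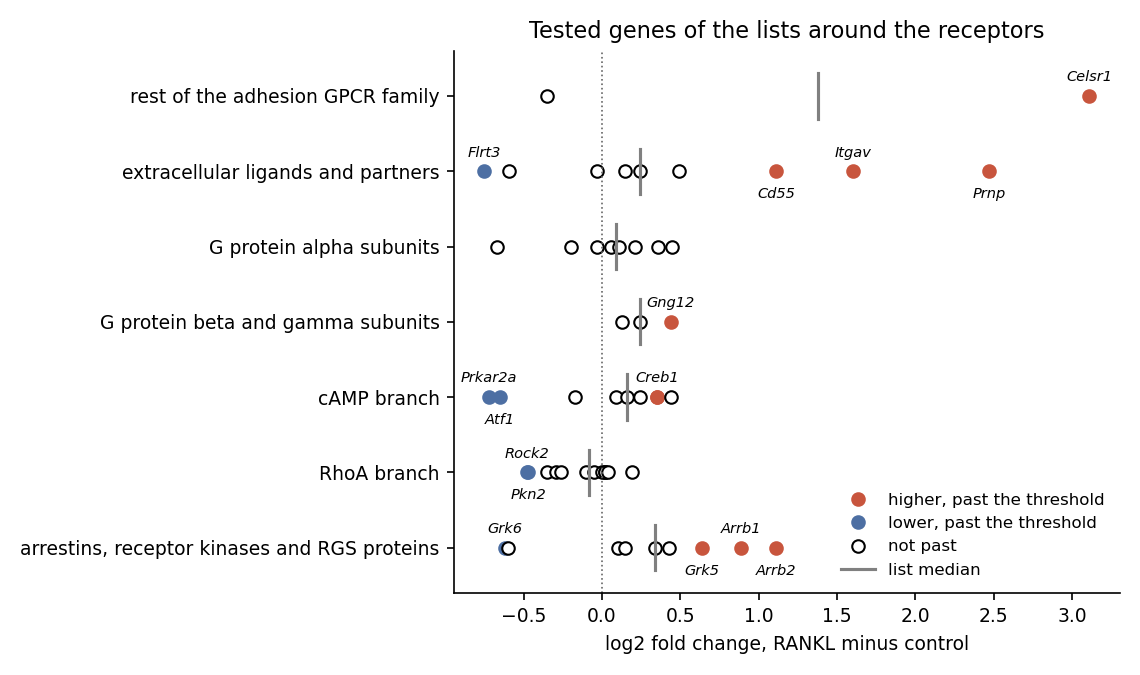
Fitted log2 fold change, RANKL minus control, of the tested genes in the 7 lists, 1 row for each list; filled points passed the threshold (red higher, blue lower), open points did not, and grey bars mark the list medians. *Celsr1* (3.11), *Prnp* (2.47), *Itgav* (1.6), *Cd55* (1.11) and *Arrb2* (1.11) lie farthest to the right.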

How the data were processed

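The deposited table holds raw counts per gene for 8 libraries, 4 control and 4 RANKL, grouped by their labels. The authors trimmed reads of 50 bases, discarded reads from ribosomal, mitochondrial, phiX and adapter sequence, used STAR for alignment (GRCm38) and obtained strand-specific counts from featureCounts on Ensembl release 94. No molecular identifiers are mentioned, so intervals and floors (3 counts for a count of 0) cover counting error only.

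Symbols, coordinates and coding sequences came from GENCODE M21, which matched 54409 of the 54532 genes. The other 123 genes held 0.0193% of counts. edgeR 4.0.16 (TMM, its filter on low counts, quasi-likelihood test, no block) compared all 8 libraries, with Benjamini-Hochberg adjustment over 9971 genes and a threshold of 0.05. The scripts were tested on simulated counts. Alternatives used DESeq2 1.42.0, limma 3.58.1, other scalings, filters and thresholds, and left out libraries.

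The members and the gene lists were chosen with earlier results of these data known. Named genes are the 8 members, other family genes that were tested, up to 3 genes past the threshold per list by size at a mean of at least 5 CPM, any past it against the list median, and the 5 nearest profiles to *Adgrd1*. *Tgm2*, *Gnas*, *Rhoa*, *Prkar1a*, the marker genes given by name and the genes around *Adgrd1* were named after their values were seen.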

Additional observations from a re-analysis of the deposited data

Results flagged for a closer look

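Among 46 groups of 4 libraries checked for 1 library apart from the rest, 3 were found, where chance gives about 2.3 (1 in 20). *Adgre5* in control replicate 3 was at 3.29 CPM, with the next library at 6.71 CPM. *Adgrl2* in control replicate 4, the shallowest library, was at 17.2 CPM (10 counts), with the next at 22.3 CPM. The control libraries of *Adgrl2* differed by no more than counting error (chi-square per degree of freedom 0.273). *Grk5* in RANKL replicate 3 was at 16.7 CPM, with the next at 24.1 CPM.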

How the results depend on the processing

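*Celsr1* stayed past the threshold in the same direction under every alternative that tested it. For *Adgrd1*, whose values chose the list, the range of the difference is a description only. *Adgrd1* and *Celsr1* were not tested when at least 10 counts were asked for in every library. The count of members past the threshold was 2 to 4. Leaving out 1 library at a time gave 1853 to 2601 genes past the threshold against 2587, 2 to 3 members, 13 to 19 list genes, an *Adgrd1* difference of 5.17 to 5.42 and a summed control level of the members of 181.3 to 186.7 CPM. A stricter threshold of 0.01 gave 1636 genes, and a fold of at least 2 gave 577 genes and 5 list genes, by construction fewer. The difference of *Adgre5* changed sign with limma-voom (-0.05) and without the shallowest library of each group (-0.26), and it ran from -0.28 to 0.55 when 1 library was left out; the cause was not tested.

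Libraries of the same number deviated together little or not at all (correlations of -0.00724, -0.0334, 0.101 and 0.035). With few libraries, some of them shallow, such values cannot exclude shared cultures, so whether the numbers pair the samples is not known. With replicate number as a block, 2610 genes, 4 members and 18 list genes passed, the added member being *Adgra3* (-0.69), and *Adgrd1* stood at 5.26.

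Depth limited the low genes. In the shallowest library a count of 0 allows up to 5.14 CPM and 1 count is worth 1.71 CPM, and 14 family genes had too few counts to test.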
